A study of Mus musculus with 7 samples.

Results

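The 10 genes described here encode parts of the contractile actin cytoskeleton and its anchorage, together with vimentin: Actn1, Flna, Tagln, Tagln2, Tpm1, Tpm2, Myl9, Zyx, Vcl and Vim. They were chosen as a list of symbols, and all 10 were found, with 17 of the 55681 probes and 10 of the 20887 named genes on the array. Actn1, Vim, Tagln, Myl9, Flna and Zyx had 1 probe each, Tagln2, Tpm2 and Vcl had 2, and Tpm1 had 5. All 17 probes were well above background on all 7 arrays, so each of the 10 genes was measured in each sample and each passed the filter on dim probes.

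Expression was measured on 1-colour arrays in epithelial cells stripped with EDTA from the proximal intestine of male C57BL/6J mice aged 8 weeks. Knockout mice carried Mob1a f/f and Mob1b f/f alleles together with Villin-creERT2 and were sampled 4 days (2 arrays), 7 days (2 arrays) or 10 days (1 array) after tamoxifen. The Villin promoter drives the inducible Cre recombinase in intestinal epithelium, so the floxed alleles of Mob1a and Mob1b, adaptor proteins upstream of the Hippo kinases Lats1 and Lats2, are deleted there. Control mice (2 arrays) carried the Mob1a f/f and Mob1b f/f alleles without Cre. All groups therefore shared the floxed alleles, and tamoxifen was given at 80 mg/kg per day for 2 days. The labels place the controls 7 days after tamoxifen, whereas the design text calls its reference time day 0, so their day is not settled. Because the controls lacked Cre, an effect of active Cre cannot be told apart from loss of Mob1a and Mob1b. The replicates were different mice, per the design text.

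Stress fibres are bundles of actin filaments that are crosslinked by alpha-actinin and filamin, stabilised by tropomyosin and transgelin, and pulled by non-muscle myosin. They end in focal adhesions, where vinculin and zyxin link actin to integrins. The transcription of many of these genes is known to depend on SRF, which binds the CArG box, and on YAP and TAZ, the proteins that Lats kinases hold in check and that bind DNA through TEAD factors. In healthy intestinal epithelium most actin lies in the brush border, and vimentin, the intermediate filament protein of mesenchymal and many immune cells, is low.

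The 7 arrays shared 1 slide and 1 scan, and the control and day 4 arrays occupied row 1 of the slide while the day 7 and day 10 arrays occupied row 2. Slide row and the differences of day 7 or day 10 from control or day 4 cannot be told apart. Signals well above background were found for 45.2% to 51.3% of probes per array, no spot was saturated, and the 75th percentile of signal used for scaling was 315 to 395 except on the day 10 array, where it was 545. Precision is limited by the number of arrays. The targeted gene Mob1b gave levels of -0.90 and -1.13 on the control arrays, -2.47 and -2.42 on day 4, -2.73 and -2.48 on day 7 and -2.65 on day 10 for its brighter probe, lower in every knockout array. The dim Mob1a probe differed from control by -0.27 ± 0.25 on day 4, 0.25 ± 0.25 on day 7 and 1.60 ± 0.30 on day 10 (adjusted p = 0.011), and whether it lies in the deleted part was not tested. All 10 intestinal epithelial markers were well above background on every array, and their summed signal, in units of each array's 75th percentile, was 1870 to 1980 in controls, 1670 to 1840 on day 4, 1950 to 1960 on day 7 and 1560 on day 10.

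The promoters of the 4 genes that were higher on day 7 are shown because they differ in which of the motifs of TEAD factors and SRF they hold. Each sequence is the 250 bases before the gene start on the gene's own strand, from RefSeq on GRCm38.p6. The coordinates are chr1:172499996-172500245 (plus strand) for Tagln2, chr14:20929148-20929397 (plus) for Vcl, chrX:74246535-74246784 (minus) for Flna and chr2:156775214-156775463 (plus) for Myl9. Capitals mark the TEAD motif GGAATG, read as CATTCC on the opposite strand, or the CArG box. The CArG box was taken without mismatches as CC, then only A or T bases, then GG.
Tagln2: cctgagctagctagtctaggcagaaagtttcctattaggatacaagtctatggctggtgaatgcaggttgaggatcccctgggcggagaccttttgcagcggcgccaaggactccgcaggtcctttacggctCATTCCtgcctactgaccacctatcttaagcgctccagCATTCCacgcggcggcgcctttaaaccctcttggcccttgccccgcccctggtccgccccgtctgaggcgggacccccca
Vcl: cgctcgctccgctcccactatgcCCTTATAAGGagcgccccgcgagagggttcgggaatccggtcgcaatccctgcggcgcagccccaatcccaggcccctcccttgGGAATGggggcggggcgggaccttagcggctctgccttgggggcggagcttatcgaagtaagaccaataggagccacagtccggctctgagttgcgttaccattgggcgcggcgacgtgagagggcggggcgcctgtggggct
Flna: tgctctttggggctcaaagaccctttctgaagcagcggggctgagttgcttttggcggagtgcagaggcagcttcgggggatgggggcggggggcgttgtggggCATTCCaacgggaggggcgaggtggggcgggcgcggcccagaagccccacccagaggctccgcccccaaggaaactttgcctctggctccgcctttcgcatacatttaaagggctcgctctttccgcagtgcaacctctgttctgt
Myl9: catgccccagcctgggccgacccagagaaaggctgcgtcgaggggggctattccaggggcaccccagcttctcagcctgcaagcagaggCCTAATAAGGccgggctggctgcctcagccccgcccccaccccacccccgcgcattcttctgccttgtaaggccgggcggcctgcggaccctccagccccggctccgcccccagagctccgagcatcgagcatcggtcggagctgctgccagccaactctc

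Tagln2 held the TEAD motif 2 times, at bases 118 to 113 and 80 to 75 before the start. Flna held it once, at bases 146 to 141, and Vcl once, at bases 143 to 138. CArG boxes lay in Vcl at bases 227 to 218 and in Myl9 at bases 161 to 152, and no TEAD motif overlapped a CArG box. A promoter was listed for 9 of the 10 genes. The missing one is Tagln, which was not called on day 7, so its motifs were not seen and the called and uncalled genes cannot be compared in full. Among the 5 of these that were not called on day 7, Tpm1 held 1 TEAD motif, at bases 56 to 51, and Actn1, Vim, Tpm2 and Zyx held neither motif in this window. Of all 32851 promoter windows in the table, 12.6% held GGAATG on either strand and 1.47% held a CArG box. These matches describe letters in a window and were not tested as binding sites.

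Levels below are log2 signals relative to the 75th percentile of the array, so a level of 0 is a signal at that percentile. Levels of different probes are not compared with each other. Differences are given as log2 values ± the standard error (SE) of the limma fit, and a difference is called at an adjusted p under 0.05 over 24763 features. The single array of day 10 takes its spread from the other groups, so its tests carry no replicate check of their own.

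The genes did not move as a block. On day 7, 4 of the 10 were called higher than control (Flna, Myl9, Tagln2 and Vcl) and 0 lower, where 7.46% of all features were called, 2.96% higher and 4.50% lower. On day 10, 4 were called higher (Actn1, Flna, Tpm2 and Vcl) and 1 lower (Zyx), where 28.1% of all features were called, 10.5% higher and 17.6% lower. On day 4 limma called 0 of the 10, and 1 had an unadjusted p under 0.05, where 0.0323% of all features were called, none lower, and 6.23% had such a p. The median difference of the 10 genes from control was -0.06 on day 4, 0.02 on day 7 and 0.89 on day 10, beside -0.08, -0.08 and -0.15 over all features. Flna and Vcl were called at both day 7 and day 10, Myl9 and Tagln2 on day 7, and Actn1, Tpm2 and Zyx on day 10. The day 7 and day 10 comparisons share the same control arrays. By level, 6 of the 10 were highest on the day 10 array and 2 on a day 7 array (Tagln2 and Myl9), whereas 2 were highest on a control array and lowest on day 10 (Tagln and Zyx). Over all features, 25.3% were highest and 34.5% lowest on the day 10 array, and 25.4% were highest on a day 7 array.

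**Figure D1:**
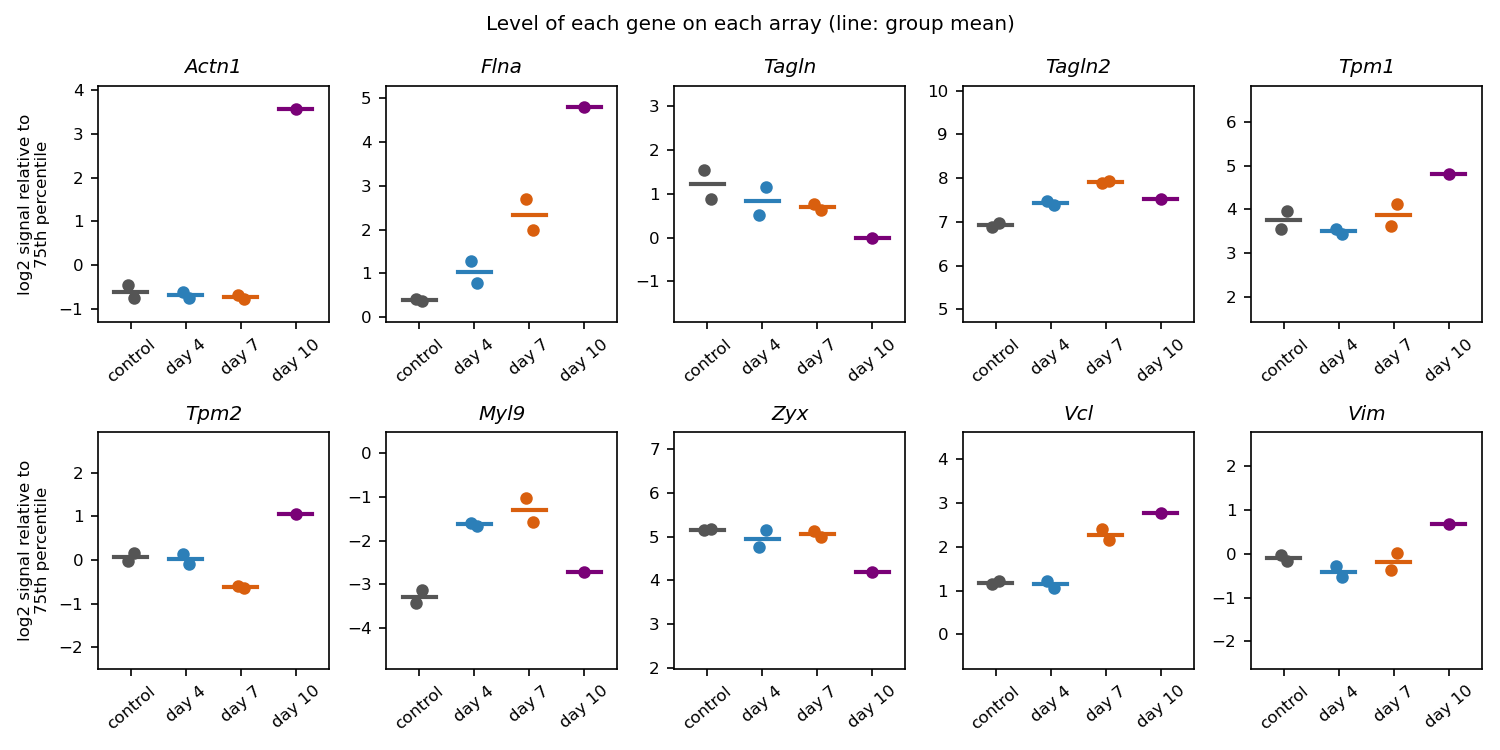
Level of each gene on each array, as log2 signal relative to the array's 75th percentile, for control, day 4, day 7 (2 arrays each) and day 10 (1 array), with a line at the group mean; every panel spans the same number of log2 units. Actn1 stayed between -0.77 and -0.45 on 6 arrays and stood at 3.56 on the day 10 array, whereas Flna stepped up from 0.36 and 0.42 in controls to 4.81.

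Actn1 encodes alpha-actinin-1, which crosslinks antiparallel actin filaments in stress fibres and at adhesions. Its level was -0.45 and -0.76 on the control arrays, -0.61 and -0.75 on day 4, -0.69 and -0.77 on day 7 and 3.56 on the day 10 array. The first 6 values overlap and the day 10 array stands far above them. The difference from control was 4.17 ± 0.27 on day 10 (18-fold, adjusted p = 0.00036), against -0.12 ± 0.22 on day 7 (adjusted p = 0.79), for which the 95% interval ran from -0.66 to 0.42. Day 10 exceeded day 7 by 4.29 ± 0.27 (19.6-fold, adjusted p = 0.00081), and both day 10 calls held under all 14 alternative settings run, with a difference from control of 3.75 to 4.40.

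Flna encodes filamin A, which joins actin filaments into networks and ties them to membrane proteins. Its level was 0.42 and 0.36 on the control arrays, 1.29 and 0.78 on day 4, 2.69 and 2.00 on day 7 and 4.81 on the day 10 array. Each group lay wholly above the one before it. The rise over control was 1.96 ± 0.32 on day 7 (3.88-fold, adjusted p = 0.02) and 4.41 ± 0.39 on day 10 (21.3-fold, adjusted p = 0.00079), while the day 4 difference of 0.65 ± 0.32 was not called (adjusted p = 0.87). The step from day 7 to day 10 was 2.46 ± 0.39 (5.50-fold, adjusted p = 0.009), and that from day 4 to day 7 was 1.31 ± 0.32 (adjusted p = 0.1). Without control replicate 1, control replicate 2 or day 7 replicate 1, the day 7 call was lost (adjusted p = 0.093, 0.074 and 0.071), with differences of 1.99, 1.92 and 1.61.

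Transgelins bind along actin filaments and stiffen them. Tagln, the transgelin of smooth muscle and of stress fibres, had levels of 1.54 and 0.89 on the control arrays, 0.52 and 1.16 on day 4, 0.76 and 0.64 on day 7 and -0.01 on the day 10 array. The day 4 arrays overlapped the controls, the day 7 arrays lay just below both controls, and the day 10 array was the lowest. No difference from control was called for Tagln, at -0.38 ± 0.33 on day 4 (adjusted p = 0.93), -0.51 ± 0.33 on day 7 (adjusted p = 0.41) and -1.23 ± 0.40 on day 10 (adjusted p = 0.067, 95% interval -2.20 to -0.25).

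Tagln2, the transgelin common in epithelial and blood cells, moved differently. Its brighter probe had levels of 6.88 and 6.98 on the control arrays, 7.47 and 7.38 on day 4, 7.89 and 7.93 on day 7 and 7.53 on the day 10 array. The day 7 arrays lay above all the others, and both day 4 arrays lay between control and day 7. The difference from control was 0.49 ± 0.20 on day 4 (adjusted p = 0.79), 0.98 ± 0.20 on day 7 (1.97-fold, adjusted p = 0.042) and 0.60 ± 0.25 on day 10 (adjusted p = 0.13). The day 7 call was lost whichever 1 of the 6 control, day 4 and day 7 arrays was left out (adjusted p = 0.081 to 0.22), with a difference of 0.92 to 1.03.

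The second Tagln2 probe gave levels of 3.12 and 3.19 in controls, 3.99 and 3.74 on day 4, 5.04 and 4.66 on day 7 and 4.53 on day 10. In a fit of all probes as separate features it was higher than control by 1.69 ± 0.24 on day 7 (3.23-fold, adjusted p = 0.013) and by 1.37 ± 0.29 on day 10 (2.58-fold, adjusted p = 0.017). The 2 probes thus shared their order of groups and differed in the day 10 call.

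**Figure D2:**
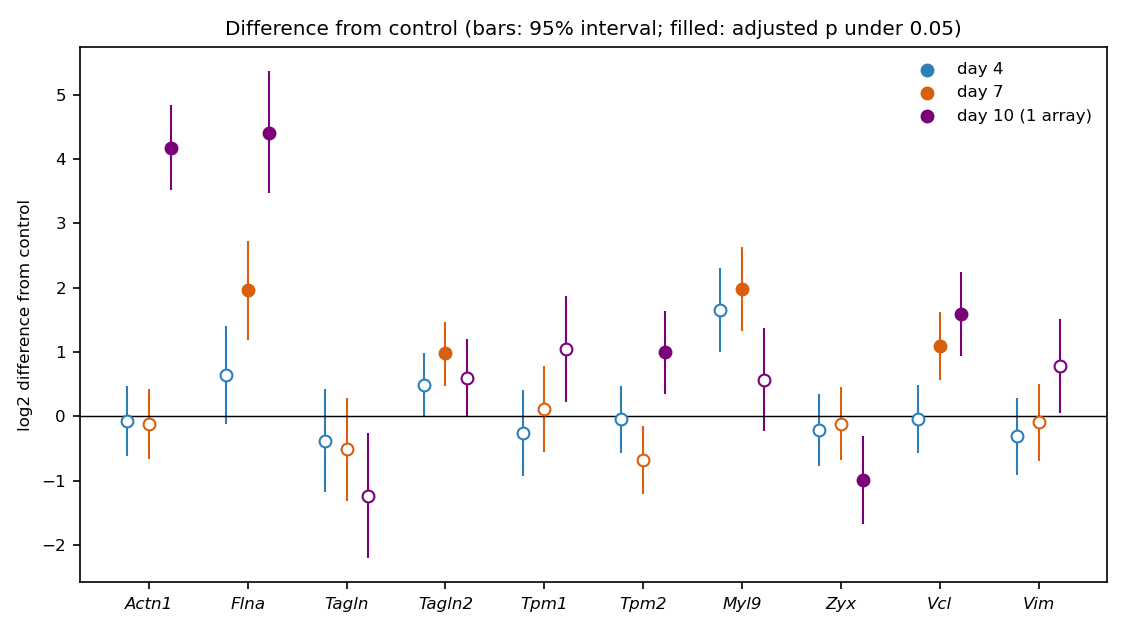
Difference of each gene from control on day 4, day 7 and day 10 on the log2 scale, with 95% intervals from the limma fit as bars and filled points for an adjusted p under 0.05. Filled points stand above 0 for Flna, Tagln2, Myl9 and Vcl on day 7 and for Actn1, Flna, Tpm2 and Vcl on day 10, and below 0 for Zyx on day 10.

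Tropomyosins lie along the actin filament and set which motors and severing proteins reach it. The brightest Tpm1 probe had levels of 3.55 and 3.96 on the control arrays, 3.55 and 3.44 on day 4, 3.61 and 4.13 on day 7 and 4.80 on the day 10 array. Control, day 4 and day 7 overlapped, and day 10 was the highest. Its difference of 1.05 ± 0.34 from control on day 10 was not called (adjusted p = 0.064), nor was 0.12 ± 0.27 on day 7 (adjusted p = 0.83). The other Tpm1 probes, fitted as separate features, differed from control on day 10 by 0.79, 0.47, 0.24 and -0.19, with adjusted p from 0.15 to 0.69. The brightest probe was called under 6 of the 14 alternative settings, with an adjusted p as low as 0.031. Tpm1 is spliced into many isoforms, and which of them each probe reads was not tested.

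Tpm2 was called in both comparisons with day 10. Its brighter probe had levels of -0.03 and 0.16 on the control arrays, 0.14 and -0.10 on day 4, -0.60 and -0.63 on day 7 and 1.06 on the day 10 array. Both day 7 arrays lay below all others and the day 10 array above all others. The difference from control was -0.67 ± 0.22 on day 7 (adjusted p = 0.13, 95% interval -1.20 to -0.15) and 1.00 ± 0.27 on day 10 (adjusted p = 0.037), and day 10 exceeded day 7 by 1.67 ± 0.27 (3.18-fold, adjusted p = 0.0094). The day 10 call against control was lost without either control array (adjusted p = 0.14 and 0.08, differences 0.90 and 1.09) and without either day 4 array (adjusted p = 0.062 for each), while the step from day 7 to day 10 was called under all 14 settings. The dimmer Tpm2 probe was more scattered, at -1.99 and -0.44 on the control arrays and 0.64 on the day 10 array, a difference of 1.85 ± 0.60 that was not called (adjusted p = 0.065).

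Myl9 encodes a regulatory light chain of myosin II, whose phosphorylation switches contraction on. Its level was -3.43 and -3.13 on the control arrays, -1.59 and -1.66 on day 4, -1.02 and -1.58 on day 7 and -2.71 on the day 10 array. All day 4 and day 7 arrays lay above both controls, and the day 10 array lay between. The difference from control was 1.65 ± 0.27 on day 4 (3.15-fold, adjusted p = 0.22), 1.98 ± 0.27 on day 7 (3.94-fold, adjusted p = 0.013) and 0.57 ± 0.33 on day 10 (adjusted p = 0.25). Among the 10 genes, Myl9 had the highest difference on day 4 and the 1 unadjusted p under 0.05 there (0.000786). Day 10 was lower than day 7 by 1.41 ± 0.33 (a difference of -1.41, 2.65-fold, adjusted p = 0.034), the opposite direction to Actn1, Flna and Tpm2 in that step.

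The Myl9 probe was dim, with processed signals of 29.2 to 164. With the normexp background correction, which compresses differences of dim probes, its difference was 0.70 on day 4 (adjusted p = 0.65) and 0.85 on day 7 (adjusted p = 0.051). Without control replicate 1 the day 7 difference was 1.83 (adjusted p = 0.075). The fall from day 7 to day 10 lost its call without either control array (adjusted p = 0.054 for each), without either day 4 array (0.074 for each) and without day 7 replicate 1 (0.071). Myl9 has close paralogues in Myl12a and Myl12b, and how specific the probe is was not tested.

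Vcl encodes vinculin, which couples talin at integrins to actin under tension. Its brighter probe had levels of 1.14 and 1.23 on the control arrays, 1.22 and 1.06 on day 4, 2.40 and 2.15 on day 7 and 2.77 on the day 10 array. Control and day 4 overlapped, and every later array lay above them. The difference from control was -0.04 ± 0.22 on day 4 (adjusted p = 1, 95% interval -0.57 to 0.49), 1.09 ± 0.22 on day 7 (2.13-fold, adjusted p = 0.038) and 1.59 ± 0.27 on day 10 (3.01-fold, adjusted p = 0.0074). The step from day 4 to day 7 of 1.13 ± 0.22 was not called (adjusted p = 0.058). The day 7 call was lost whichever 1 of the 6 control, day 4 and day 7 arrays was left out (adjusted p = 0.051 to 0.19, difference 0.96 to 1.21), while the day 10 call held under all 14 settings. The dimmer Vcl probe differed from control by 0.94 ± 0.28 on day 7 (adjusted p = 0.11) and 1.28 ± 0.34 on day 10 (adjusted p = 0.035).

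Zyx encodes zyxin, a LIM protein of focal adhesions that recruits actin polymerisation and repair factors to stress fibres. Its level was 5.14 and 5.18 on the control arrays, 4.76 and 5.14 on day 4, 5.12 and 4.98 on day 7 and 4.18 on the day 10 array. The first 6 arrays lay close together and the day 10 array below them. The difference from control was -0.98 ± 0.28 on day 10 (1.97-fold lower, adjusted p = 0.046) and -0.11 ± 0.23 on day 7 (adjusted p = 0.82). The call on day 10 was lost whichever 1 of the 6 other arrays was left out (adjusted p = 0.053 to 0.13). It was also lost when scaled over the probes detected on all arrays (-0.75, adjusted p = 0.09) and under quantile normalization (-0.66, adjusted p = 0.11).

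Vim had levels of -0.02 and -0.17 on the control arrays, -0.27 and -0.54 on day 4, -0.38 and 0.03 on day 7 and 0.69 on the day 10 array. Both day 4 arrays lay just below the controls, the day 7 arrays lay on either side of them, and the day 10 array was the highest. No difference was called, at -0.31 ± 0.25 on day 4 (adjusted p = 0.92), -0.09 ± 0.25 on day 7 (adjusted p = 0.87, 95% interval -0.69 to 0.51) and 0.79 ± 0.30 on day 10 (adjusted p = 0.1, 95% interval 0.05 to 1.52). The RNA came from whole cell preparations, so more cells that express a gene and more of its RNA per cell cannot be told apart.

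Between day 4 and day 7, limma called 0 of the 10 genes, where 2.67% of all features were called, 1.24% higher and 1.43% lower, and 3 had an unadjusted p under 0.05 (Flna, Vcl and Tpm2), beside 17.4% of all features. Between day 7 and day 10, 3 were called higher (Actn1, Flna and Tpm2) and 1 lower (Myl9), where 17.9% of all features were called, 7.20% higher and 10.7% lower.

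The day 7 calls depended on which arrays entered the fit. Of the 4 genes called higher on day 7, 0 were called without control replicate 1, 1 without control replicate 2, 1 without day 7 replicate 1, and 2 without day 7 replicate 2 or either day 4 array. The day 10 calls of Actn1 and Flna against control and against day 7, of Vcl against control and of Tpm2 against day 7 held in each such fit. Each such fit kept the day 10 array, on which these calls rest, so their dependence on it was not tested.

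**Figure D3:**
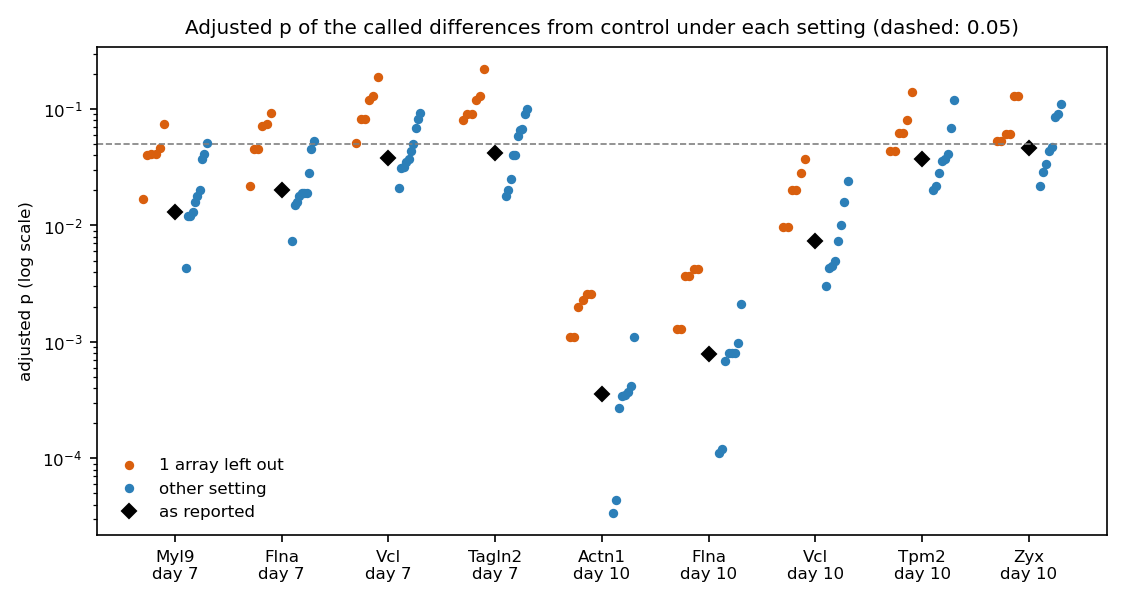
Adjusted p (log axis) of each called difference from control as reported (diamonds), with 1 array left out (orange) and under the other settings (blue), with a dashed line at 0.05. The array left out was a control, day 4 or day 7 array. The day 10 points of Actn1, Flna and Vcl lie below the line throughout, whereas those of Myl9, Flna, Vcl and Tagln2 on day 7 and of Tpm2 and Zyx on day 10 fall on both sides of it.

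Cells other than epithelium can bring transcripts of these genes, above all Tagln, Tpm2, Myl9 and Vim. Of 12 smooth muscle markers, 7 never gave a signal well above background (Myh11, Actg2, Des, Cnn1, Synpo2, Lmod1 and Hhip), and 2 or 3 of the 12 did on each array. Their summed signal, in units of each array's 75th percentile, was 9.0 to 12.0 in controls, 7.63 to 8.31 on day 4, 6.31 to 6.79 on day 7 and 3.09 on day 10. Acta2, smooth muscle actin, was not well above background on any control or day 4 array, and was so on 1 of the 2 day 7 arrays and on the day 10 array. Its difference from control was 0.57 ± 0.33 on day 7 (adjusted p = 0.36) and 0.39 ± 0.40 on day 10 (adjusted p = 0.52). The sum came almost wholly from Pgm5 and Smtn on the first 6 arrays, and the part of smooth muscle cells in the values of Myl9 was not tested. On day 7 the 1 call among the 4 tested was Synm, synemin, lower by at least 1.22-fold (adjusted p = 0.034). Synm passed the filter on dim probes through the 2 control arrays alone, which favours such a call, so nothing is drawn from it. Pgm5 was lower on day 10 by at least 145-fold (adjusted p = 0.00023). Myocd went the other way, well above background on the day 10 array alone at a level of -3.04. It did not pass the filter, so it was not tested, and it is named after its value was seen.

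Among 11 fibroblast markers, 6 never gave a signal well above background, namely Col1a1, Pdgfra, Lum, Dpt, Postn and Twist1. Their summed signal was 0.755 to 1.11 in controls, 0.618 to 0.704 on day 4, 0.424 to 0.681 on day 7 and 3.39 on day 10, where Fn1, fibronectin, at a level of 1.62 made up most of the sum and was higher than control by 4.43 ± 0.61 (adjusted p = 0.0037). Of the 5 tested, the other 4 differed on day 10 by -1.10 (Col1a2), -0.68 (Col3a1), -1.87 (Col6a1) and -1.53 (Dcn), with adjusted p from 0.051 to 0.44. On day 7 the 1 call was Dcn, decorin, lower by at least 3.32-fold (adjusted p = 0.03). Pericyte markers summed to 0.0967 to 0.172 on the first 6 arrays and 0.205 on day 10, with 4 of 6 not well above background on any array. Endothelial markers summed to 6.62 to 9.06 on the first 6 arrays and 5.51 on day 10, and 4 of 7 never gave a signal well above background. This endothelial sum came almost wholly from Kdr, at levels of 2.66 to 3.13 on the first 6 arrays and 2.40 on day 10. Enteric glia markers summed to between 0.333 and 0.557 on all arrays, with S100b and Gfap not well above background on any.

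Immune cells also make Vim and Tagln2. Their markers were well above background for 8 or 9 of 11 genes on each array, and Cd79a on none. They summed to 47.7 to 50.8 in controls, 34.2 to 42.2 on day 4, 56.6 to 66.9 on day 7 and 77.4 on day 10. Most of each sum was the single gene Itgam. Its level was 5.02 and 5.08 in controls, 4.36 and 4.81 on day 4, 5.35 and 5.62 on day 7 and 5.80 on day 10. On day 7, limma called 0 of the 10 tested, and 0 had an unadjusted p under 0.05 (22.6% of all features did). On day 10, 3 were higher, Csf1r by 3.32 ± 0.33 (adjusted p = 0.0011), Laptm5 by 2.15 ± 0.32 (adjusted p = 0.0046) and Adgre1 by at least 2.89-fold (adjusted p = 0.014), and 3 were lower, with differences of -4.34 for Cd3d, -2.07 for Cd3e and -1.25 for Cd2. Of all features, 10.5% were called higher and 17.6% lower on day 10. Among the immune markers not called on day 10, the difference was -0.18 for Ptprc, 0.74 for Itgam and -0.12 for Fcer1g. The part of these cells in the day 10 values of Vim, Actn1, Flna and Vcl was not tested.

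Actin itself and its motors surround these genes. Of 11 tested actin and myosin isoforms and light chains, 1 was called higher on day 7, Myl9 itself, and 0 lower. On day 10, 2 were called higher and 2 lower. Of all features, 2.96% were called higher and 4.50% lower on day 7, and 10.5% and 17.6% on day 10. The median difference of the list was 0.50 on day 7 and 0.11 on day 10, beside -0.08 and -0.15 over all features. Actb, the cytoplasmic beta actin, had levels of 9.40 and 9.44 in controls, 9.55 and 9.52 on day 7 and 9.04 on day 10, and was not called (adjusted p = 0.77 on day 7 and 0.3 on day 10). Myl12a, another regulatory light chain, differed by 0.84 ± 0.24 on day 7 (adjusted p = 0.099) and 1.31 ± 0.29 on day 10 (adjusted p = 0.02). Myh9, the heavy chain of non-muscle myosin IIA, differed by 0.69 ± 0.22 (adjusted p = 0.13) and 1.37 ± 0.27 (adjusted p = 0.013) at those times. Acta1, the skeletal muscle actin, differed by 1.04 ± 0.35 on day 7 (adjusted p = 0.14) and -2.82 ± 0.42 on day 10 (adjusted p = 0.005). Mylk, the kinase that phosphorylates regulatory light chains, differed by 0.26 ± 0.20 on day 7 (adjusted p = 0.5) and -3.07 ± 0.25 on day 10 (8.42-fold lower, adjusted p = 0.00062), and is named after its value was seen.

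Among the other crosslinkers and filament stabilisers, 12 were tested besides the members, 1 was called higher on day 7 and 5 on day 10, and 0 lower at either time. Of all features, 2.96% were called higher on day 7 and 10.5% on day 10, and 4.50% and 17.6% lower. The one on day 7 was Cnn2, calponin 2, which binds actin and tropomyosin. Its level was -0.26 and -0.11 in controls, -0.04 and -0.20 on day 4, 1.5 and 0.91 on day 7 and 3.33 on day 10. Like Flna it rose by day 7 (1.39 ± 0.27, adjusted p = 0.033) and was higher again on day 10 (3.51 ± 0.33, adjusted p = 0.00095). Palld, palladin, differed by 0.77 ± 0.22 on day 7 (adjusted p = 0.1). On day 10 Pdlim7, an alpha-actinin partner of the PDZ-LIM family, was higher by 5.12 ± 0.30 (adjusted p = 0.00027). The filamin Flnc, also among the 5, was higher by at least 74.9-fold (adjusted p = 0.0066). Flnc was well above background on 1 day 4 array and the day 10 array alone. It passed the filter on dim probes only with the day 10 array, which favours such a call, so nothing is drawn from it. Flnc and Pdlim7 were singled out after their values were seen.

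Of 18 focal adhesion genes tested besides Vcl and Zyx, 1 was called higher on day 7 and 5 on day 10, and 0 lower at either. The shares of all features called were 2.96% and 10.5% higher, and 4.50% and 17.6% lower, at those times. The talin Tln2, which links integrins to actin, was at -2.53 and -2.75 in controls, -0.94 and -1.22 on day 4, -1.13 and -1.27 on day 7 and -1.29 on day 10. Its difference from control was 1.56 ± 0.23 on day 4 without a call (adjusted p = 0.16), and it was higher by 1.44 ± 0.23 on day 7 (adjusted p = 0.019) and by 1.35 ± 0.28 on day 10 (adjusted p = 0.015). The knockout arrays of Tln2 lay together and all above control from day 4, unlike those of Vcl. Parva, parvin alpha, differed by 1.56 ± 0.36 on day 7 (adjusted p = 0.057) and 2.82 ± 0.44 on day 10 (adjusted p = 0.0059), and Tns3, tensin 3, by 0.70 ± 0.23 (adjusted p = 0.14) and 1.38 ± 0.28 (adjusted p = 0.015).

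Actin turnover genes sever, cap or supply filaments. Of 18 tested, 3 were called higher on day 7 and 0 lower, and 4 higher and 2 lower on day 10. The shares of all features were 2.96% higher and 4.50% lower on day 7, and 10.5% higher and 17.6% lower on day 10. Gsn, gelsolin, which severs and caps filaments, was at 1.64 and 2.50 in controls, 3.70 and 4.14 on day 4, 5.66 and 5.92 on day 7 and 6.42 on day 10. Every knockout array of Gsn lay above both controls, and it was higher by 3.72 ± 0.35 on day 7 (13.2-fold, adjusted p = 0.0046) and 4.35 ± 0.42 on day 10 (20.4-fold, adjusted p = 0.0011). Pfn2, profilin 2, was higher by 1.66 ± 0.27 on day 7 (adjusted p = 0.02) and 2.34 ± 0.33 on day 10 (adjusted p = 0.0039). Tmsb10, a thymosin that holds actin monomers, was higher by 1.28 ± 0.24 (adjusted p = 0.032) and 2.12 ± 0.30 (adjusted p = 0.0039). The 2 lower genes on day 10 were Cap2, by at least 1.28-fold (adjusted p = 0.012), and Scin, scinderin, with a difference of -5.68 ± 0.36 (adjusted p = 0.00033). Cap2 was well above background on both control arrays and on 1 day 4 array alone. It passed the filter on dim probes only with the controls, which favours such a call, so nothing is drawn from it. Scin, a gelsolin relative, is named after its value was seen.

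Srf, the gene of the factor that binds CArG boxes, differed by -0.29 ± 0.23 on day 7 (adjusted p = 0.5) and -0.30 ± 0.28 on day 10 (adjusted p = 0.46).

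Brush border actin genes build the microvilli of enterocytes. Of 14 tested, limma called 0 on day 7, where 2 had an unadjusted p under 0.05, and 7 lower and 0 higher on day 10. Of all features, 22.6% had such a p on day 7, and 17.6% were called lower and 10.5% higher on day 10. The median difference of the list was 0.05 on day 7 and -1.31 on day 10, beside -0.08 and -0.15 over all features. Pls1, fimbrin of the microvillus, was at 4.54 and 4.74 in controls, 4.93 and 4.96 on day 7 and 2.63 on day 10, a difference of -2.01 ± 0.26 (adjusted p = 0.0029). Myo7b, the myosin of the microvillus tips, differed by -0.78 ± 0.30 on day 7 (adjusted p = 0.2) and -1.66 ± 0.37 on day 10 (adjusted p = 0.02). Eps8l3 differed by -1.23 ± 0.29 on day 7 (adjusted p = 0.059) and -0.58 ± 0.35 on day 10 (adjusted p = 0.27), and Cdhr2 by 0.30 and -0.75 without a call. Vil1, villin, whose promoter drives the Cre, was also lower on day 10, with a difference of -1.42 ± 0.26 (adjusted p = 0.01).

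**Figure D4:**
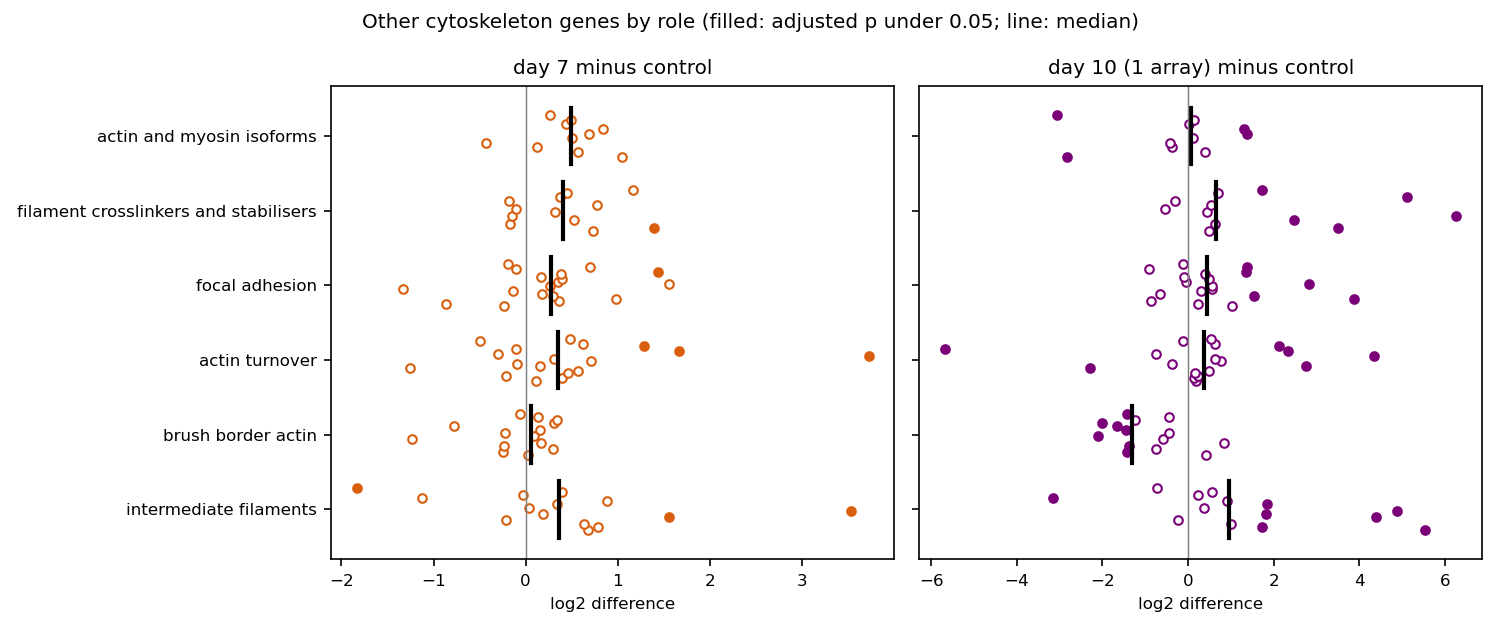
Differences from control on the log2 scale on day 7 (left) and day 10 (right) for the other cytoskeleton genes by role, members left out, with filled points for an adjusted p under 0.05 and a line at the median of each role. On day 10 the brush border genes have a median of -1.31, with 7 filled points below 0, while crosslinkers have 5 filled points above 0. Of these 5, Flnc passed the filter on dim probes only with the day 10 array.

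Beside Vim, 14 other intermediate filament genes were tested, and 2 were called higher and 1 lower on day 7, and 6 higher and 1 lower on day 10. The shares of all features were 2.96% higher and 4.50% lower on day 7, and 10.5% higher and 17.6% lower on day 10. The simple epithelial keratin Krt7 was at 2.04 and 2.10 in controls, 3.64 and 2.84 on day 4, 5.76 and 5.43 on day 7 and 6.96 on day 10. Its rise was 3.53 ± 0.32 on day 7 (adjusted p = 0.0041) and 4.89 ± 0.39 on day 10 (29.7-fold, adjusted p = 0.00058), with every group above the one before it. Krt23 was higher by 1.55 ± 0.20 on day 7 (adjusted p = 0.011) and 4.40 ± 0.25 on day 10 (adjusted p = 0.00026). Krt18 differed by 0.78 ± 0.22 on day 7 (adjusted p = 0.092) and 1.72 ± 0.26 on day 10 (adjusted p = 0.0054). Synm, synemin, was lower on day 7 by at least 1.22-fold (adjusted p = 0.034), with no day 7 array well above background. Synm passed the filter through the 2 control arrays alone, so nothing is drawn from that call. Krt7 and Krt23 were thus called higher on day 7, when Vim differed from control by -0.09.

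For each of the 4 genes called on day 7, the 2 other genes with the highest Pearson correlation over the 7 arrays were taken as a description. The arrays fall into the groups of the study, so any gene that moves with them scores high. Vcl was most like Tnfrsf12a, a receptor of the TNF family (r = 0.998), and Ptar1 (r = 0.997). Tnfrsf12a was at 2.66 and 2.79 in controls, 2.85 and 2.73 on day 4, 5.06 and 4.6 on day 7 and 5.88 on day 10, a step after day 4 as in Vcl. Flna was most like Agps, an enzyme of ether lipid synthesis (r = 0.997), and Gm13275 (r = 0.996). Agps was at 1.53 and 1.69 in controls, 2.26 and 2.03 on day 4, 3.20 and 2.69 on day 7 and 4.55 on day 10, with each group above the one before it.

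Tagln2 was most like Car2, carbonic anhydrase 2 (r = 0.994), and Gm10046 (r = 0.991). Car2 was at 2.23 and 2.65 in controls, 3.96 and 3.67 on day 4, 5.33 and 5.26 on day 7 and 3.90 on day 10, so that its day 7 arrays were the highest, as those of Tagln2 were. Myl9 was most like Nemp1, a nuclear envelope protein (r = 0.971), and 4930451G09Rik (r = 0.970). Nemp1 was at 0.59 and 0.77 in controls, 1.60 and 1.54 on day 4, 1.89 and 1.92 on day 7 and 0.85 on day 10, up from day 4 and back near control on the day 10 array.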

How the data were processed

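Total RNA of 7 samples was hybridised to 1-colour arrays. The authors deposited intensity values, read by Agilent Feature Extraction 11.5.1.1 from array design 028005 per the file headers; the processed signal is background-subtracted and spatially detrended, with no scaling between arrays. A value table deposited for the series matched it to within 0.1% in 100% of the single-spot probes. Control and outlier spots were left out, spots of a probe were averaged as log2 values, and each array's 75th percentile was subtracted. The files used here give accessions, so probes were named through a RefSeq table of GRCm38.p6 (27509 probes with 1 symbol, 28172 with none).

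A probe had to be well above background on 2 arrays to be kept, with the brightest probe per gene, which left 24763 (13805 with a symbol). limma 3.58.1 in R 4.3.3 was fitted over the 7 arrays with a mean for each group. Tests were 2-sided, p-values were adjusted over every feature by the Benjamini-Hochberg method, and the residual degrees of freedom were 3, with 3.16 more from the prior. In simulated data the estimates centred on the changes put in, but few of the smallest of these were called. The simulation gave the day 10 array the same spread as the others, so it cannot check that assumption. A gene not well above background in a whole group has a lower bound, given as "at least".

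The members, the gene lists and the settings were chosen with earlier results of these data known. Genes named besides the members were the targeted genes, up to 4 per list with the smallest p at day 7, and the 2 genes most like each member called at day 7; others are said to be chosen after their values were seen, which also holds for Actb, Srf, Vil1, Fn1, Csf1r, Adgre1, Cd3d, Cd3e and Fcer1g. Some results of these lists are not reported here. Alternatives were other scalings, quantile normalization, normexp correction with an offset of 50, the deposited table, other filters, the mean of a gene's probes, fewer groups, a replicate block and leaving out each array. Normexp was run on the median spot signal in place of the mean signal.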

Additional observations from a re-analysis of the deposited data

Results flagged for a closer look

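Actn1, Flna, Tpm2 and Myl9 were singled out because the difference from control at day 10 was not the same as at day 7 by limma's test of the step itself. Day 10 minus day 7 was 4.29 for Actn1 (adjusted p = 0.00081), 2.46 for Flna (adjusted p = 0.009), 1.67 for Tpm2 (adjusted p = 0.0094) and -1.41 for Myl9 (adjusted p = 0.034). These rest on 1 array at day 10. For Tpm2 the day 7 arrays lay below both controls and the day 10 array above both. Over all features, 32.4% lay wholly below the controls on day 7 and 36.8% above them on day 10, so either position is common.

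Vim was singled out because its day 4 arrays lay below both controls and its day 10 array above both. Over all features, 26.7% lay wholly below the controls on day 4 and 36.8% above them on day 10, so either position is common. For Vim, day 10 minus day 4 was 1.09. That difference was not tested.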

How the results depend on the processing

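Over 16 other settings, 760 values of the 50 gene differences were compared: 678 kept direction and side of the threshold, 48 lost a call, 12 gained one and 22 changed sign. The calls of Actn1 and Flna at day 10 (against control and day 7), Vcl at day 10 and Tpm2 from day 7 to day 10 held throughout. The day 10 array was in every fit that gave them. The cause of the changes was not tested.

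All changes of sign were in differences without a call. They were -0.13 for Myl9 at day 10 and 0.16 for Tpm1 at day 4 with normexp, and -0.16 for Tpm1 at day 7 and 0.33 for Tpm2 at day 4 with the mean of a gene's probes. With median scaling and with the percentile over detected probes, Tpm2 and Vcl at day 4 gave 0.02 and 0.01, and with quantile normalization Zyx at day 7 gave 0.01. With 1 array left out, values ran from -0.23 to 0.08 (Actn1 day 4), -0.28 to 0.04 (Actn1 day 7), -0.12 to 0.02 (Actn1 day 7 minus day 4), -0.46 to 0.18 (Tagln day 7 minus day 4), -0.14 to 0.38 (Tpm1 day 7), -0.16 to 0.07 (Tpm2 day 4), -0.12 to 0.04 (Vcl day 4), -0.29 to 0.12 (Vim day 7) and -0.09 to 0.29 (Zyx day 7 minus day 4).

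Of the 4 genes higher at day 7, 2 were called with median scaling, with normexp, with the 2 groups alone and with the replicate block, 1 with no filter on dim probes, and 0 to 2 with 1 array left out. From day 4 to day 7, 1 (Vcl) was called with normexp and with probes detected on all arrays. The genes lower at day 10 numbered 2 (Zyx and Tagln) with median scaling and with probes detected on all arrays. They numbered 0 with the percentile over detected probes, quantile normalization, no filter or any 1 control, day 4 or day 7 array left out. Those lower from day 7 to day 10 numbered 0 with no filter and 0 to 1 with 1 array left out. Of the 17 probes, 5 were called at day 7, 3 with median scaling, normexp or the 2 groups alone, 2 with no filter and 0 to 4 with 1 array left out.

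Features called at day 4 numbered 8, against 27 with median scaling, 4 with the percentile over detected probes, 17 with normexp, 2 with no filter, 24 with probes detected on all arrays, 2 with the replicate block, 3 with the 2 groups alone and 1 to 8 with 1 array left out. At day 7, 1847 became 913 with no filter, 1067 with the 2 groups alone and 522 to 2071 with 1 array left out. From day 4 to day 7, 661 became 116 with no filter, 407 with the 2 groups alone and 0 to 1097 with 1 array left out, and at day 10, 6956 became 4581 to 7484. At day 10, 37.2% of calls were higher, against 27.6% with median scaling and 49.2% with the percentile over detected probes, and the median of all features moved from -0.15 to -0.35 and 0.08.

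Replicate 1 arrays of different groups deviated from their group means with correlations of 0.00831 (control and day 4), 0.0857 (control and day 7) and 0.25 (day 4 and day 7). As not every pair was above 0.1 and no label states a pairing, the numbers were not taken to pair the samples. With the replicate block, Tagln2 and Vcl at day 7 were no longer called (adjusted p = 0.059 and 0.05), and no other call of the 10 genes between control, day 4 and day 7 changed. The block was not run for day 10, which has 1 array. Slide row was not fitted, since each group lay in 1 row. Depth is limited by signal over background for the dim probe of Myl9 and for the dimmer probe of Vcl.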
